A study of Mus musculus with 6 samples.

Results

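The forkhead and odd-skipped factors described here are 10 mouse genes for transcription factors of embryonic mesenchyme. They are the forkhead genes Foxf1, Foxf2, Foxl1, Foxc1, Foxc2, Foxd1, Foxp1 and Foxp2, and the odd-skipped zinc finger genes Osr1 and Osr2. They were chosen by name as a family, by a rule that uses no measured value, although earlier results of these data were known. All 10 were among the 32028 genes of the deposited table and had at least 1 count. Of these 10, 8 had enough counts to be tested, and Foxf1 and Osr2 were below the filter on low counts. The whole table held 12745 tested genes.

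The samples were 6 poly(A) RNA libraries of mouse embryonic fibroblast (MEF) clones. The 3 knockout clones came from Macf1flox/flox embryos and the 3 het clones from Macf1flox/+ embryos. Macf1 encodes a large cytoskeletal linker that binds both microtubules and actin. The cells of both genotypes carry SV40 large T antigen, which lets fibroblasts divide without limit, and both received Cre from an AAV8 vector under the CMV promoter, so the het clones are Cre-treated as well and keep 1 wild-type allele of Macf1. Each library is a clone grown from a single cell and harvested at confluence, and the labels do not say which embryo each clone came from. The p-values below therefore cover the spread between 3 and 3 clones, which can include differences between clones that have no link to the genotype. In bulk RNA, fewer cells of a type and less RNA per cell cannot be told apart.

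Forkhead factors bind DNA through a winged helix domain, and the forkhead genes of connective tissue are known from the regions of mesoderm they mark. Foxf1, Foxf2 and Foxl1 mark the mesenchyme that lines the gut and other endodermal organs and are known to respond to Hedgehog signals from the epithelium. Foxc1 and Foxc2 act in somites, head mesenchyme and vessels, Foxd1 marks the stroma of the kidney, and Foxp1 and Foxp2 are repressors that pair with each other through a leucine zipper. The odd-skipped genes mark intermediate and lateral plate mesoderm, and both take part in forming limb connective tissue.

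The libraries held 15661342 to 18209673 estimated counts each. Macf1 itself had 309, 363 and 322 CPM (counts relative to the depth of the library) in knockout clones 1, 2 and 3, against 693, 696 and 579 CPM in het clones 1, 2 and 3, and a count over the whole gene does not separate the floxed exons from the rest. As a check of the labelled cell type, Vim, which encodes the main intermediate filament of mesenchymal cells, was high in both genotypes, with 2866 CPM on average in knockout clones and 2425 CPM in het clones. The type I collagen genes were not. Col1a1 averaged 7.40 CPM in knockout clones and 1229 CPM in het clones, and Col1a2 averaged 0.816 CPM in knockout clones and 1056 CPM in het clones. Of the other fibroblast markers, Col3a1, Pdgfra, Pdgfrb and S100a4 passed as lower in knockout clones, with log2 fold changes of -4.47, -2.35, -1.82 and -0.57, and the calls of all but Pdgfra were lost in some alternatives. Col5a1, Fn1 and Vim did not pass, with log2 fold changes of 0.44, -0.44 and 0.24. Col5a1 averaged 593 CPM in knockout clones and 438 CPM in het clones. Thy1 and Lum were at or near 0 in both genotypes, and Dcn had no count in knockout clones and at most 1.02 CPM in het clones. The summed level of 12 fibroblast markers was 6678 to 9092 CPM in knockout clones and 10120 to 13630 CPM in het clones, and that of 9 smooth muscle and pericyte markers was 5.97 to 12.0 CPM in knockout clones and 205 to 234 CPM in het clones. Summed epithelial markers reached 0.677 to 1.09 CPM in knockout clones and 16.3 to 57.1 CPM in het clones, where nearly all of it was Krt19. Endothelial markers summed to 4.96 to 6.76 CPM in knockout clones and 7.96 to 17.99 CPM in het clones, haematopoietic markers to 22.2 to 26.8 CPM in knockout clones and 11.7 to 17.0 CPM in het clones, and skeletal muscle markers to 14.8 to 17.9 CPM in knockout clones and 1.52 to 2.10 CPM in het clones, with no count of Myod1 or Myog in any clone. Few genes carried these sums. Fn1 and Vim gave most of the fibroblast sum, and Cd14 and Cd68 most of the haematopoietic sum. Cspg4 gave most of the smooth muscle and pericyte sum in het clones, at 137 CPM on average. Pax3 gave most of the skeletal muscle sum in knockout clones, at 13.7 CPM on average. The summed neural and glial markers and the summed cartilage markers overlapped between the genotypes. Most of the neural and glial sum was Nes, at 103 CPM on average in knockout clones and 118 CPM in het clones. Of the 5 neural and glial markers tested, 2 passed as lower, 1 as higher and 2 did not pass, where 28.1% of all tested genes passed. The sums that were apart between the genotypes (fibroblast, smooth muscle and pericyte, epithelial, endothelial, haematopoietic and skeletal muscle) stood apart in the same clones as the factors that passed below, and their part in the results was not tested.

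The bases upstream of 4 transcript starts are shown first, because they lie before transcripts of which some passed the test between the genotypes and some did not. The 2 Foxp1 stretches lie before the start of the transcript that gave most Foxp1 counts and before the innermost strong start of the gene, where Foxp1-225 (which passed) and Foxp1-230 (which did not) begin 1 base apart, and both lie in introns of longer Foxp1 transcripts. Foxf2 and Foxc1 are neighbours on chromosome 13 and did not both pass the test. RefSeq windows on GRCm38.p6 were at hand for 4 of the 10 genes. Each stretch is 230 bases long, reads 5′ to 3′ on the strand of the gene, ends 20 bases before the start and has its CpG dinucleotides in capitals.
Foxp1 inner start, chr6:99028319-99028548, minus strand: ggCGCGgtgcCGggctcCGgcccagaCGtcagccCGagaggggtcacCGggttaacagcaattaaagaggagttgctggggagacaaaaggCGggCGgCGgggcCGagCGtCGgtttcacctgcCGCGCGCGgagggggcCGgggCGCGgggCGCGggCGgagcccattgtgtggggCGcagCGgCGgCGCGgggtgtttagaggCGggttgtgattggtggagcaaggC
Foxp1 middle start, chr6:99266536-99266765, minus strand: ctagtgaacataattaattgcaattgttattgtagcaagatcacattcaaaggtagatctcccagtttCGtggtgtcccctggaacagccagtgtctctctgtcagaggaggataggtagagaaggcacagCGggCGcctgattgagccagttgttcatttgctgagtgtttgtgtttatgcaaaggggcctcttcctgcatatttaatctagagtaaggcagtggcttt
Foxf2, chr13:31625566-31625795, plus strand: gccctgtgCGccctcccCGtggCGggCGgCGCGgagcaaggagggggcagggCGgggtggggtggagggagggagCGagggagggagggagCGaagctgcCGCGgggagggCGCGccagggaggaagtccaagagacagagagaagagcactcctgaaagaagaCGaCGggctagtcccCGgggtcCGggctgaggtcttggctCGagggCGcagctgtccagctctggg
Foxc1, chr13:31806396-31806625, plus strand: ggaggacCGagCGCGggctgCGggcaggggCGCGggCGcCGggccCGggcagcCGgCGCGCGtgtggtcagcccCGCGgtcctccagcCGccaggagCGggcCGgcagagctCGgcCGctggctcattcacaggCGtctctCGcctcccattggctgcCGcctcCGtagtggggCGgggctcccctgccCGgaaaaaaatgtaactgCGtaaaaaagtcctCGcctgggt
Over the full 250 bases before the start, the Foxp1 inner window had 34 CpG dinucleotides and a GC content of 74.0%, against 3 CpG and 45.2% for the Foxp1 middle window. Foxc1 had 29 CpG and Foxf2 had 21, and the median of all 32851 windows was 6. The letters TAAACA, the core of a forkhead site, were searched on both strands. They occurred once in the Foxp1 inner window, in 2 places in the Foxp1 middle window, and not in those of Foxf2 and Foxc1, while 12.0% of all windows held them. The letters CCACCCA, the core of a GLI site (GLI factors carry the Hedgehog signal), occurred in 8.1% of all windows and in none of the 6 windows of these genes. Such matches describe the sequence and are not evidence of binding.

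Most of the factors were lower in the knockout clones. Of the 8 tested genes, 6 passed the test as lower (Osr1, Foxl1, Foxc1, Foxc2, Foxd1 and Foxp1) and 0 passed as higher, and Foxf2 and Foxp2 did not pass. Among all tested genes, 28.1% passed in either direction and 14.2% passed as lower (edgeR's quasi-likelihood test, Benjamini-Hochberg adjusted p under 0.05). The median log2 fold change of knockout over het was -1.14 over the 8 genes and -0.001 over all tested genes. In 6 of the 8 every knockout clone was below every het clone, which held for 23.7% of all tested genes. Osr1, Foxc2 and Foxl1 had at most 5 counts in any knockout clone and came past the filter on low counts through the het clones only. Lower was thus the only call open to them, and the counts of 6 and the median rest in part on them.

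**Figure D1:**
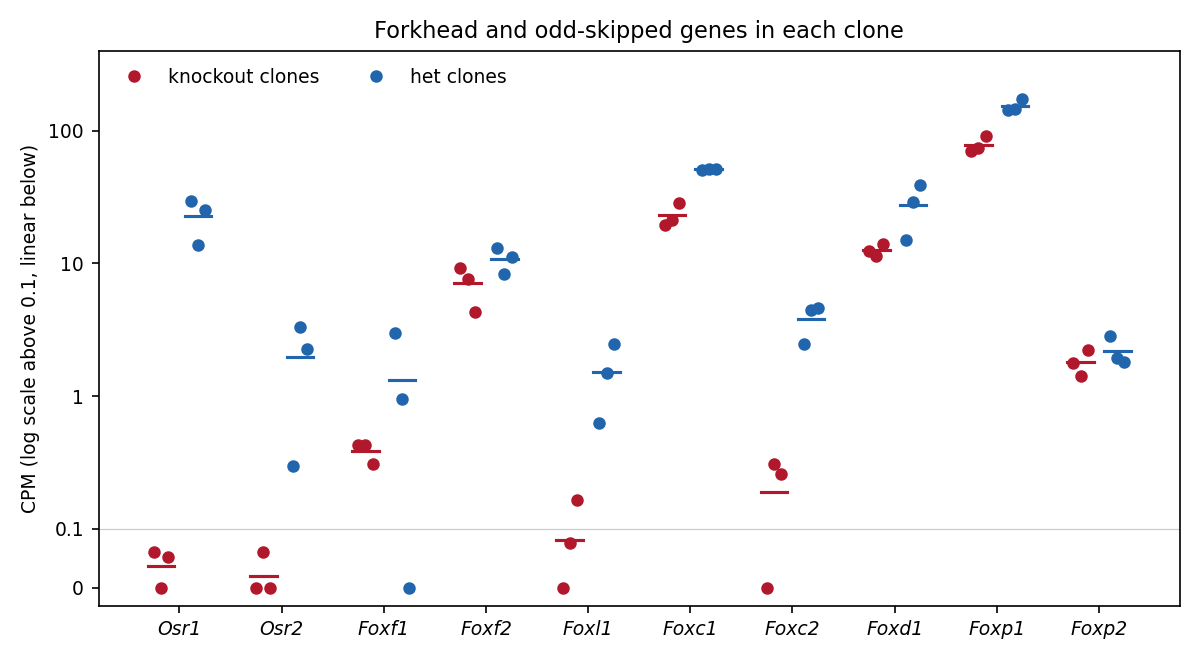
CPM of each of the 10 factors in each clone, on an axis that is logarithmic above 0.1 CPM and linear below it. Knockout clones stand left of het clones for each gene, and short bars mark the group means. The clones of the 2 genotypes are separate for Osr1, Osr2, Foxl1, Foxc1, Foxc2, Foxd1 and Foxp1, and overlap for Foxf1, Foxf2 and Foxp2.

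Osr1 had the largest fold change of the tested factors. Osr1 (ENSMUSG00000048387, chr12:9570116-9581500, plus strand), which marks the progenitors of kidney, of lung mesenchyme and of limb connective tissue, had 0.0611, 0 and 0.0517 CPM in knockout clones 1, 2 and 3, against 29.6, 13.7 and 25.1 CPM in het clones 1, 2 and 3. All knockout clones were at or near 0 and all het clones were well above it, with no overlap. In counts this was 2 in all knockout clones together against 1138 in all het clones, a ratio of 586-fold lower with a 95% counting interval of 162 to 4847. Osr1 fell with a log2 fold change of -8.96 (SE 0.58, edgeR adjusted p = 0.000225), and it passed in all 14 alternative settings in which it was tested. Its fold on the log2 scale ranged from -9.34 to -3.55 over those settings, the smallest being that of log2(FPKM + 1).

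Osr2 (ENSMUSG00000022330, chr15:35296098-35303305, plus strand), known for its role in the palate and in joints, had 0, 0.0615 and 0 CPM in knockout clones 1, 2 and 3, against 0.299, 3.32 and 2.26 CPM in het clones 1, 2 and 3. Every het clone was above every knockout clone, and het clone 1 was far below the other het clones. The counts were 1 in knockout clones and 100 in het clones, 103-fold lower with a counting interval of 18.1 to 4110. The gene was below the filter on low counts. Without the filter its log2 fold change was -6.18 and its edgeR adjusted p was 0.0100. It also came through the filter with 1 clone left out, and was then above the threshold without knockout clone 1 or knockout clone 2 (0.0602 and 0.0673) and past it without knockout clone 3 or het clone 1.

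Of the gut and organ mesenchyme genes, Foxl1 fell, Foxf2 did not pass and Foxf1 was too low to test, and the differences between them were not tested. Foxl1 (ENSMUSG00000097084, chr8:121127940-121130644, plus strand), a marker of the fibroblasts beneath the gut epithelium, had 0, 0.0756 and 0.166 CPM in knockout clones 1, 2 and 3, against 0.624, 1.48 and 2.46 CPM in het clones 1, 2 and 3. The groups did not overlap, although all values were low. It fell with a log2 fold change of -4.18 (SE 0.87, edgeR adjusted p = 0.014), on 4 counts in knockout clones and 76 in het clones. Without knockout clone 2 the adjusted p was 0.0702 and the call was lost.

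Foxf2 (ENSMUSG00000038402, chr13:31625816-31631403, plus strand), which is needed in the palate and in brain pericytes, had 9.22, 7.69 and 4.29 CPM in knockout clones 1, 2 and 3, against 13.1, 8.38 and 11.2 CPM in het clones 1, 2 and 3. Knockout clone 1 was above het clone 2, so the groups overlapped. The log2 fold change was -0.62 (SE 0.32, edgeR adjusted p = 0.19), and the gene passed in none of 14 alternative settings.

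Foxf1 (ENSMUSG00000042812, chr8:121084386-121088144, plus strand), needed for the vessels of the lung and for gut muscle, had 0.427, 0.431 and 0.310 CPM in knockout clones 1, 2 and 3, against 2.99, 0.956 and 0 CPM in het clones 1, 2 and 3. The knockout clones were alike and low, and the het clones ran from the highest value of all 6 to no count at all. With 20 counts in knockout clones and 67 in het clones it was below the filter, and without the filter its log2 fold change was -1.73 (edgeR adjusted p = 0.399). Of the 5 alternatives in which it had enough counts, it passed in 1, without het clone 3, with a log2 fold change of -2.33 and an adjusted p of 0.048.

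Both Foxc genes fell. Foxc1 (ENSMUSG00000050295, chr13:31806633-31812476, plus strand), which shapes the front of the eye, the skull and the meninges, had 19.5, 21.2 and 28.5 CPM in knockout clones 1, 2 and 3, against 50.8, 51.2 and 51.5 CPM in het clones 1, 2 and 3. The het clones were nearly equal and all stood above the knockout clones. Their coefficient of variation was 20.9% over knockout clones and 0.661% over het clones. The log2 fold change was -1.15 (SE 0.16, edgeR adjusted p = 0.00339), and it passed in 14 of 14 alternatives, within -1.34 and -1.02.

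Foxc2 (ENSMUSG00000046714, chr8:121116171-121118895, plus strand), which is needed for lymphatic valves and for the vertebral column, had 0, 0.308 and 0.259 CPM in knockout clones 1, 2 and 3, against 2.45, 4.44 and 4.64 CPM in het clones 1, 2 and 3. The groups were far apart. The log2 fold change was -4.28 (SE 0.74, edgeR adjusted p = 0.0074), on 10 counts in knockout clones and 194 in het clones, and all 12 alternatives with a value passed. The fitted change of Foxc2 was deeper than that of Foxc1, and the difference between the genes was not tested. The 2 genes share only 34 stretches of 31 bases, of 2695 in Foxc2, so few reads could be divided between them by the estimation of counts.

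Foxd1 (ENSMUSG00000078302, chr13:98354242-98359305, plus strand), a marker of kidney stroma and of a fibroblast lineage that gives rise to pericytes, had 12.3, 11.4 and 14.0 CPM in knockout clones 1, 2 and 3, against 15.1, 28.8 and 38.7 CPM in het clones 1, 2 and 3. The knockout clones were close together and just below het clone 1, while the other het clones were well above. The log2 fold change was -1.13 (SE 0.33, edgeR adjusted p = 0.0421). This call held in 5 of 14 alternatives only. It was lost with no filter, with limma-voom, on both FPKM scales, and when any single clone other than het clone 1 was left out, with adjusted p up to 0.139. The log2 fold change without het clone 3 was -0.80. Without het clone 1 it was -1.43, with an adjusted p of 0.00247.

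Foxp1 (ENSMUSG00000030067, chr6:98925338-99522721, minus strand), a repressor of transcription that acts in heart, lung and blood cell development, was the most abundant of the factors. It had 70.0, 74.7 and 90.6 CPM in knockout clones 1, 2 and 3, against 143, 145 and 173 CPM in het clones 1, 2 and 3. The groups did not overlap. It averaged 78.4 ± 10.8 CPM in knockout clones and 154 ± 16.7 CPM in het clones (SD, n = 3 each), with a log2 fold change of -0.97 (SE 0.13, edgeR adjusted p = 0.00358), and passed in 14 of 14 alternatives.

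Foxp2 (ENSMUSG00000029563, chr6:14901349-15441977, plus strand), known for its role in speech in humans and in lung epithelium in mice, had 1.78, 1.42 and 2.24 CPM in knockout clones 1, 2 and 3, against 2.85, 1.94 and 1.82 CPM in het clones 1, 2 and 3. The groups overlapped. The log2 fold change was -0.28 (SE 0.34, edgeR adjusted p = 0.566) and no alternative passed. All but 1 of its 20 listed transcripts were too low to test, and Foxp2-220 gave nearly all of its counts. Foxp2-220 has 3 exons and is annotated as a processed transcript, not as protein-coding. The Foxp2 levels and fold change given here are thus mostly those of a transcript not annotated to encode the factor.

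The deposited table lists 31 Foxp1 transcripts, of which 21 had counts and 6 could be tested, and 2 of these passed as lower. Across the 34761 transcripts tested, 7.92% passed in either direction and 3.77% passed as lower. Foxp1-204, which has 19 exons and starts at chr6:99435345, had 3.27, 3.07 and 2.11 CPM in knockout clones 1, 2 and 3, against 37.6, 15.2 and 28.7 CPM in het clones 1, 2 and 3. Its groups were far apart, with a log2 fold change of -3.27 (SE 0.39, edgeR adjusted p = 0.0101), and the call was lost without knockout clone 1 or knockout clone 2, at adjusted p 0.0542 and 0.0589. Foxp1-225, which starts at chr6:99028259, had 12.9, 13.9 and 19.99 CPM in knockout clones 1, 2 and 3, against 33.1, 28.8 and 36.8 CPM in het clones 1, 2 and 3. Its groups did not overlap either, with a log2 fold change of -1.08 (SE 0.21, edgeR adjusted p = 0.0326). That call was lost when any single clone other than knockout clone 3 was left out, with adjusted p up to 0.128. In the authors' deposited table the log2 fold changes were -3.31 for Foxp1-204 (FDR 2.40e-12) and -1.11 for Foxp1-225 (FDR 0.00413), negative meaning lower in knockout.

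The transcript with the most counts, Foxp1-206, which is 7029 bases long, begins at chr6:99266515, beside the middle stretch printed above. It had 37.2, 38.6 and 52.8 CPM in knockout clones 1, 2 and 3, against 45.4, 68.4 and 73.7 CPM in het clones 1, 2 and 3. Knockout clone 3 was above het clone 1, and the transcript did not pass (log2 fold change -0.54, edgeR adjusted p = 0.211). Foxp1-230, which shares the inner start with Foxp1-225, did not pass either, nor did Foxp1-228 and Foxp1-218, and the log2 fold changes of the 3 were -0.31, -0.66 and -0.60. Summed by start, the start at chr6:99435345 gave 4.43%, 4.05% and 2.27% of the Foxp1 counts in knockout clones 1, 2 and 3, against 27.1%, 10.7% and 16.7% in het clones 1, 2 and 3. This share was lower in every knockout clone than in any het clone. The share of the inner starts near chr6:99028258 was 33.8% to 36.3% in knockout clones and 31.3% to 33.5% in het clones. That of the middle starts near chr6:99266515 was 50.5% to 56.9% in knockout clones and 32.9% to 48.1% in het clones. Both of these shares were higher in every knockout clone than in any het clone. The shares are a description of estimated counts, in which reads of exons common to many transcripts are divided by the estimation, and the difference between transcripts was not tested. The furthest upstream starts with more than traces, at chr6:99520997-99521162, had no count in knockout clones and 3.61, 0.267 and 0.692 CPM in het clones 1, 2 and 3.

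**Figure D2:**
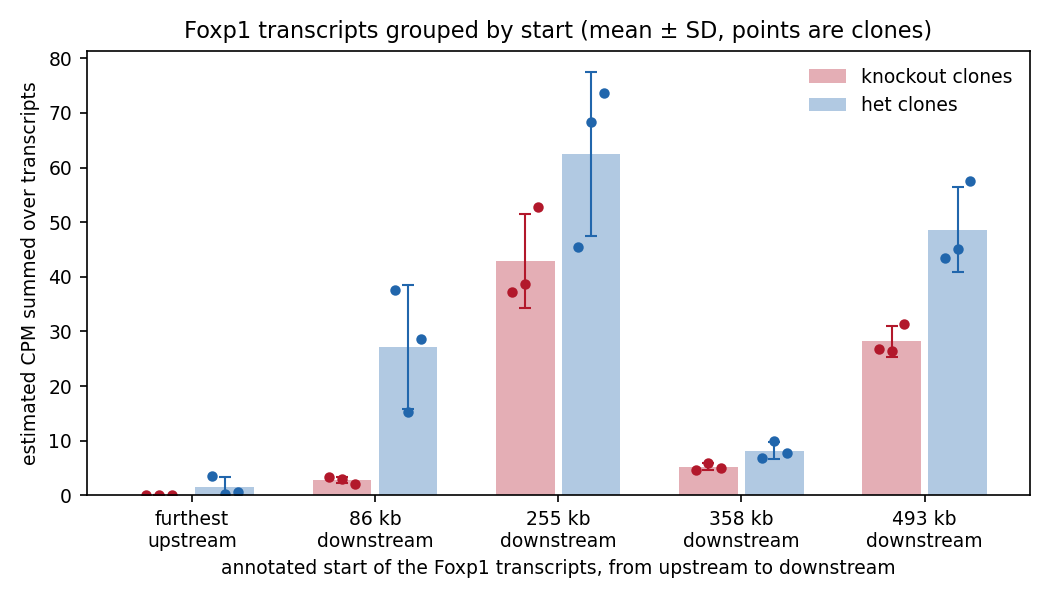
Mean CPM of Foxp1 transcripts grouped by start, with starts within 200 bases joined, against distance along the gene in kilobases downstream of the furthest upstream start drawn. Knockout is drawn left of het, points are clones and error bars are SD over 3 clones. At 86 kb knockout averaged 2.82 CPM and het 27.2 CPM, and at 255 kb they averaged 42.9 and 62.5 CPM with overlapping clones.

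Levels of different genes were compared per length, as TPM, computed from the counts and transcript lengths. Foxp1 ranked first of the 10 in all 6 clones, at 47.7 ± 9.64 TPM in knockout clones and 91.9 ± 14.5 TPM in het clones (SD, n = 3 each). Foxc1 averaged 11.5 ± 3.48 TPM in knockout clones and 25.3 ± 1.23 TPM in het clones, and Foxd1 averaged 10.02 ± 1.83 TPM in knockout clones and 22.1 ± 10.2 TPM in het clones. These were neighbours in rank and their clone values overlapped within each genotype. Foxf2 came below them, at 5.72 ± 1.62 TPM in knockout clones and 8.93 ± 1.71 TPM in het clones, and Foxp2 at 1.44 ± 0.509 TPM in knockout clones and 2.01 ± 0.422 TPM in het clones. Osr1 changed place most. It ranked 7, 10 and 9 in knockout clones 1, 2 and 3, against 2, 4 and 4 in het clones 1, 2 and 3. Osr1 had 27.4, 13.4 and 25.2 TPM in het clones 1, 2 and 3 (mean 22.0 ± 7.50 TPM), which overlapped the het values of Foxd1 and of Foxc1. Foxf1, Foxc2, Foxl1 and Osr2 averaged at most 0.312 TPM in knockout clones and 1.03 to 2.78 TPM in het clones. The 10 genes together summed to 66.1, 72.4 and 92.5 TPM in knockout clones 1, 2 and 3, against 158, 170.2 and 209.6 TPM in het clones 1, 2 and 3. Foxp1 made up 59.9% to 63.1% of that sum in knockout clones and 49.4% to 53.2% in het clones, while Osr1 made up at most 0.0823% in knockout clones and 7.90% to 17.3% in het clones. Between 4 and 5 of the genes exceeded 1 TPM in a knockout clone, against 8 or 9 in a het clone.

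The het clones differed from one another in which of the low genes they expressed. Het clone 1 had the most Foxf1, at 2.99 CPM, and the least Osr2, Foxl1, Foxc2 and Foxd1 of the het clones. Het clone 3 had no Foxf1 count and the most Foxl1, Foxc2 and Foxd1. Over het clones the coefficient of variation of CPM was 116% for Foxf1, 78.2% for Osr2, 60.3% for Foxl1 and 43.1% for Foxd1, against 0.661% for Foxc1 and 10.9% for Foxp1. Over knockout clones it was 10.2% for Foxd1, 13.8% for Foxp1 and 17.62% for Foxf1. It was larger over knockout clones for the genes with the fewest counts there, at 173% for Osr2, 103% for Foxl1, 87.55% for Foxc2 and 87.47% for Osr1. Over het clones Foxc2 and Osr1 had 31.44% and 36.09%.

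The genes Foxf1, Foxc2, Foxl1, Foxf2 and Foxc1 lie in a pair of gene clusters. On chromosome 8, Foxc2 lies 31.8 kb and Foxl1 43.6 kb downstream of Foxf1. Foxc2 and Foxl1 fell by 4.28 and 4.18 on the log2 scale, and Foxf1 was untested. Mthfsd, a gene with no forkhead domain that lies between Foxf1 and Foxc2, averaged 47.5 ± 4.14 CPM in knockout clones and 45.6 ± 5.43 CPM in het clones (log2 fold change 0.06, edgeR adjusted p = 0.754). On chromosome 13, Foxc1 lies 180.8 kb downstream of Foxf2 and Foxq1 69.7 kb upstream of it. Foxq1, a forkhead gene known from hair and epithelium and not one of the 10, had 0.0611, 0 and 0.103 CPM in knockout clones 1, 2 and 3, against 18.3, 10.2 and 25.6 CPM in het clones 1, 2 and 3. It was nearly absent from all knockout clones, with 3 counts against 896 in het clones, 308-fold lower with a counting interval of 105 to 1495 (log2 fold change -8.12, SE 0.65, edgeR adjusted p = 0.000576). An antisense gene, A530084C06Rik, overlaps 3200 bases of its exons, and no source used here says whether the counting used strand. Gmds, on the far side of Foxc1, averaged 49.3 ± 10.8 CPM in knockout clones and 48.4 ± 3.88 CPM in het clones (log2 fold change 0.03, edgeR adjusted p = 0.925). Of the 11 tested neighbours in both clusters, none passed as higher and 2 passed as lower, Foxq1 and Zcchc14. That is 18.2% of them, while 28.1% of all tested genes passed in either direction and 14.2% passed as lower. Foxq1 came past the filter on low counts through the het clones only. Zcchc14, a zinc finger gene, averaged 81.0 CPM in knockout clones and 108 CPM in het clones (log2 fold change -0.42, edgeR adjusted p = 0.0319), and its call was lost in 6 of 14 alternatives. The remaining 9 did not pass, with Cox4i1, a subunit of cytochrome c oxidase, at a log2 fold change of 0.21 and Map1lc3b, an autophagy gene, at -0.23. Fendrr, the noncoding gene beside Foxf1, was not analysed here.

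**Figure D3:**
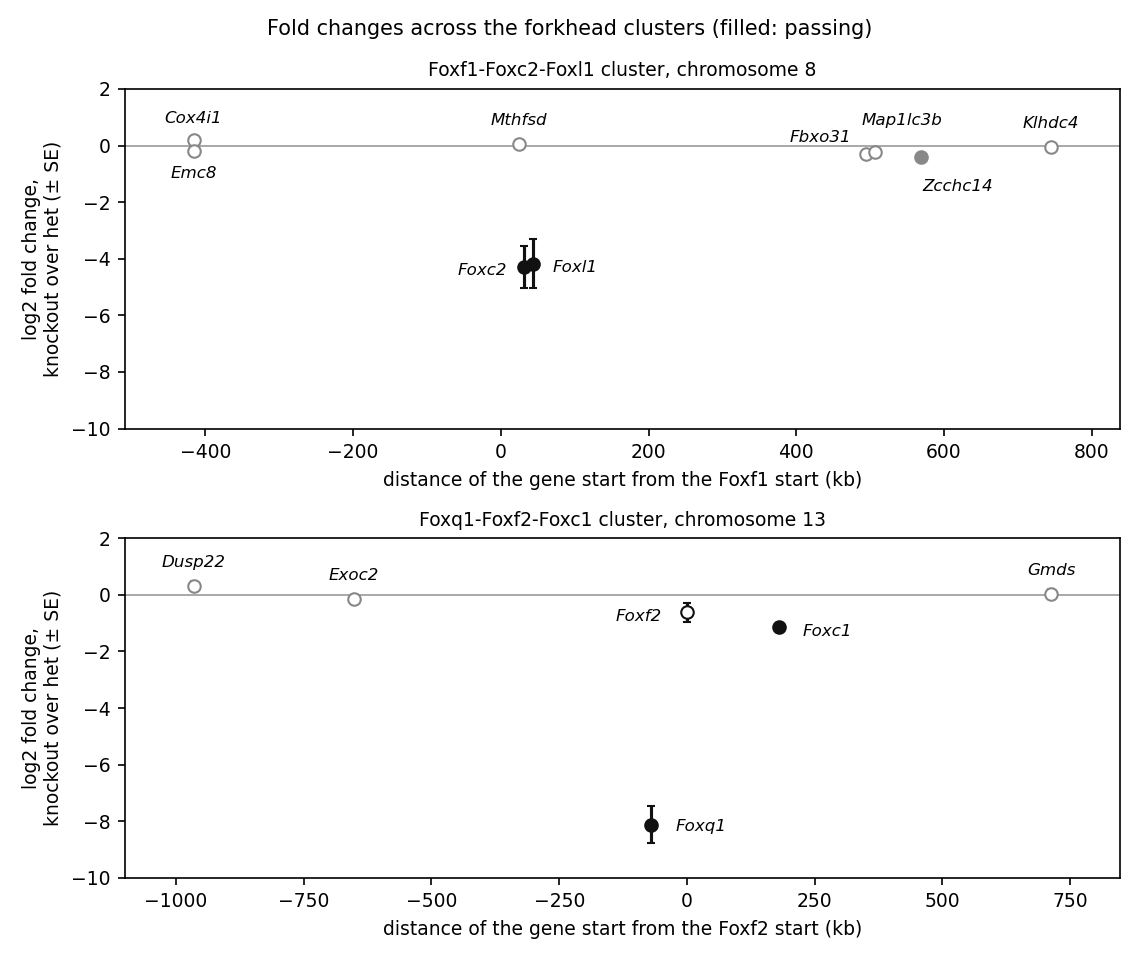
Log2 fold change of knockout over het for each tested gene around Foxf1 on chromosome 8 and around Foxf2 on chromosome 13, against distance in kilobases from the start of Foxf1 or Foxf2, with error bars of 1 SE. Forkhead genes are drawn apart from their neighbours. Foxc2, Foxl1 and Foxq1 lie below -4, Foxc1 at -1.15 and Foxf2 at -0.62, while the other genes lie between -0.42 and 0.31.

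Most other forkhead genes did not pass the test. Of 35 others listed, 26 had counts and 16 were tested, of which 1 passed as higher, 2 as lower and 13 did not pass, and the median log2 fold change was 0.10. The share passing was 18.8%, against 28.1% of all tested genes. Foxq1 and Foxm1 passed as lower. Foxm1, which drives genes of cell division, averaged 186 ± 15.6 CPM in knockout clones and 257 ± 2.53 CPM in het clones (log2 fold change -0.47, edgeR adjusted p = 0.014). Foxa1, a factor of endoderm, passed as higher and averaged 1.43 ± 0.351 CPM in knockout clones and 0.174 ± 0.145 CPM in het clones (log2 fold change 2.96, edgeR adjusted p = 0.0116). Without knockout clone 2, Foxa1 and Foxm1 were just above the threshold, with adjusted p of 0.0555 and 0.0586. Foxq1 came past the filter on low counts through the het clones only, and Foxa1 through the knockout clones only. The most abundant that did not pass were Foxk2, at 123 CPM in knockout clones and 134 CPM in het clones, and Foxj3, at 93.4 CPM in knockout clones and 79.2 CPM in het clones.

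**Figure D4:**
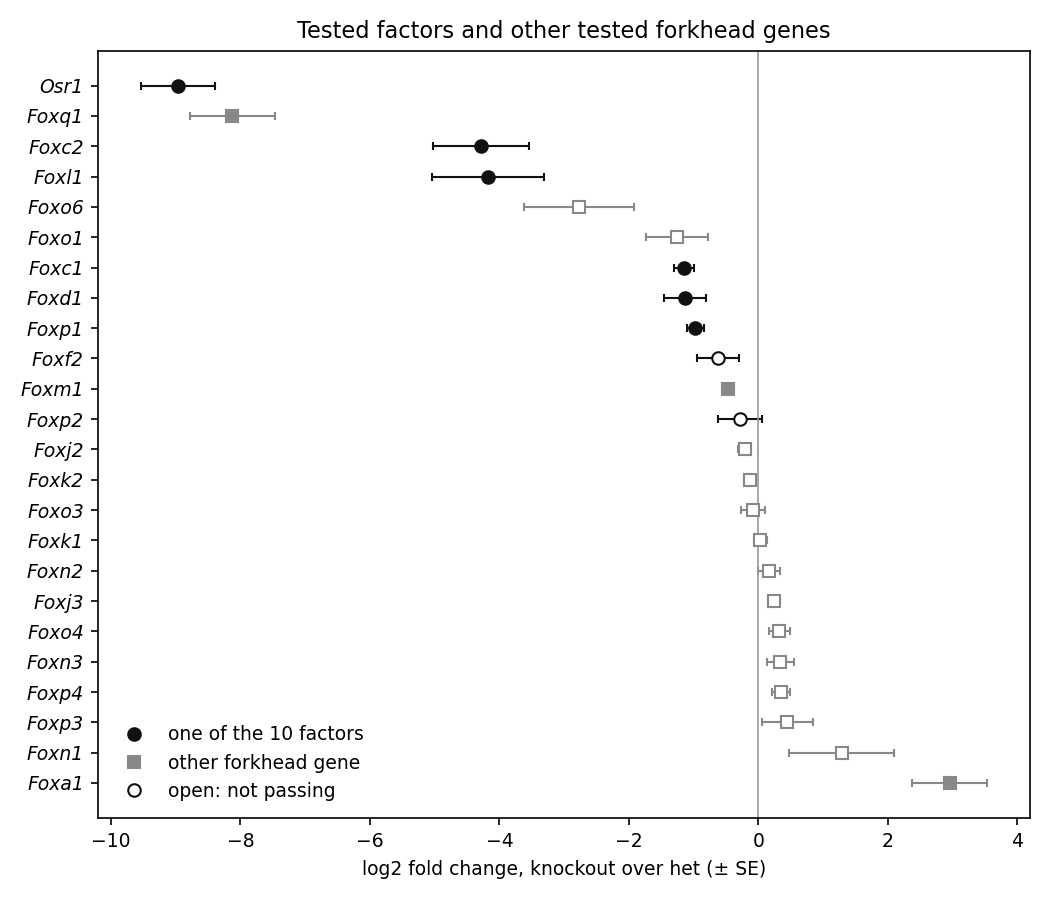
Log2 fold change of knockout over het with error bars of 1 SE for the 8 tested factors and the 16 other tested forkhead genes, sorted by value. Filled symbols passed edgeR's test at an adjusted p of 0.05. All 8 factors lie below 0, while the others lie on both sides, from Foxq1 at -8.12 to Foxa1 at 2.96.

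Further lists of genes that act with these factors were counted in the same fit. Of 15 core Hedgehog genes, which form the pathway upstream of Foxf1, Foxf2 and Foxl1, 9 were tested, of which 5 passed as lower, none as higher and 4 did not pass (median log2 fold change -0.70, against -0.001 over all tested genes). Of these 9, 55.6% passed, while 28.1% of all tested genes passed in either direction and 14.2% passed as lower. Gas1, a co-receptor, averaged 0.927 ± 0.824 CPM in knockout clones and 71.5 ± 20.5 CPM in het clones (log2 fold change -6.21, edgeR adjusted p = 0.00131). Cdon, another co-receptor, averaged 40.2 ± 7.69 CPM in knockout clones and 106 ± 22.0 CPM in het clones (log2 fold change -1.40, adjusted p = 0.00402). The GLI factor Gli3 averaged 78.4 CPM in knockout clones and 127 CPM in het clones (log2 fold change -0.70, adjusted p = 0.00666). Gli2, the main activator among the GLI factors, had no count in knockout clones, against 2.21, 10.4 and 16.5 CPM in het clones 1, 2 and 3. Against a floor of 3 counts over the knockout clones, this is at least 167-fold lower (adjusted p = 0.0134). Gli2 and Gas1 came past the filter on low counts through the het clones, so the share and median above rest in part on them. Lower was the only call open to Gli2. The remaining gene that passed was Kif7, a kinesin of the primary cilium, whose call (log2 fold change -0.76, adjusted p = 0.0427) was lost in 9 of 14 alternatives. On both FPKM scales its sign turned, to 0.12 and 0.53, so its direction depends on the values used. Smo, the signal transducer, averaged 141 CPM in knockout clones and 124 CPM in het clones, and Ptch1, a receptor and target of the pathway, averaged 47.8 CPM in knockout clones and 70.5 CPM in het clones. Neither passed (adjusted p of 0.211 and 0.144).

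Of 33 other factors of mesoderm and mesenchyme, 14 were tested, of which 2 passed as higher, 4 as lower and 8 did not pass (median log2 fold change -0.35). Of these 14, 42.9% passed in either direction, against 28.1% of all tested genes. Tbx5, the forelimb and heart factor, had 0.139, 0.565 and 0.421 CPM in knockout clones 1, 2 and 3, against 38.4, 34.6 and 35.5 CPM in het clones 1, 2 and 3. It was low in all knockout clones, with a log2 fold change of -6.60 (edgeR adjusted p = 8.8e-05). Sall1, a kidney and limb factor, averaged 0.116 CPM in knockout clones and 20.2 CPM in het clones (log2 fold change -7.36, adjusted p = 0.000665), and Lhx9, a limb and gonad factor, averaged 0.0894 CPM in knockout clones and 2.31 CPM in het clones (log2 fold change -4.51, adjusted p = 0.0145). The call of Lhx9 was lost without knockout clone 2 (adjusted p = 0.0725). Nkx2-3, a factor of gut and spleen mesenchyme, went the other way and averaged 4.72 ± 0.527 CPM in knockout clones and 0.0418 CPM in het clones. On 247 counts in knockout clones and 2 in het clones it was 119.9-fold higher, with a counting interval of 32.8 to 995 (adjusted p = 0.00193). Tbx5, Sall1 and Lhx9 came past the filter on low counts through the het clones only, and Nkx2-3 through the knockout clones only. A single direction was thus open to each of them, and the share and median above rest in part on them. The remaining passing genes were Pax8, a kidney factor, as higher (log2 fold change 1.47, adjusted p = 0.0276), and Zeb1, which holds cells in a mesenchymal state, as lower (log2 fold change -0.60, adjusted p = 0.0423), and both lost the call without knockout clone 1 or knockout clone 2, among other settings. Zeb2 and Gata4 had log2 fold changes of 0.69 and 1.85 and did not pass (adjusted p of 0.0742 and 0.199).

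Of 15 genes for subunits of the NuRD repressor complex and other partners of Foxp proteins, all 15 were tested, of which 4 passed as higher, 1 as lower and 10 did not pass (median log2 fold change 0.09). The share passing was 33.3%, near the 28.1% of all tested genes. Mta2 and Chd3, both NuRD subunits, rose with log2 fold changes of 0.61 and 0.67 (edgeR adjusted p of 0.00696 and 0.0141), and Hdac1, a histone deacetylase, fell with one of -0.63 (adjusted p = 0.0149). Gatad2a and Mta1, further NuRD subunits, rose with log2 fold changes of 0.45 and 0.41 (adjusted p of 0.0187 and 0.0198). Of these, Mta2 alone kept its call in all 14 alternatives, and without knockout clone 1 or knockout clone 2 only 1 of the 15 genes passed. Chd4 and Rbbp4, the most abundant that did not pass, had log2 fold changes of -0.14 and 0.02.

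A list of 26 genes drawn up as downstream of these factors held signals, receptors, matrix genes and others. Of the 26, 18 were tested, of which 1 passed as higher, 9 as lower and 8 did not pass (median log2 fold change -2.27). Of these 18, 55.6% passed in either direction, against 28.1% of all tested genes. Bmp4, a secreted signal known to act with Foxf1 in lateral mesoderm, averaged 0.718 ± 0.0906 CPM in knockout clones and 112 ± 34.9 CPM in het clones (log2 fold change -7.28, edgeR adjusted p = 3.7e-05). Cxcl12, a chemokine of stromal cells, averaged 10.8 ± 5.87 CPM in knockout clones and 125 ± 27.1 CPM in het clones (log2 fold change -3.53, adjusted p = 0.00369). Fgf10, the growth factor of limb and lung buds, had 1 count in knockout clones and 516 in het clones, 532-fold lower with a counting interval of 95.0 to 21040 (adjusted p = 0.00405). Wnt5a, a noncanonical Wnt signal, was the gene that rose, with 788 counts in knockout clones and 1 in het clones, 765-fold higher with a counting interval of 137 to 30250 (adjusted p = 0.000138). Fgf10 came past the filter on low counts through the het clones only, and Wnt5a through the knockout clones only. The share and median above rest in part on such genes. Itgb1, which encodes an integrin subunit, and Sox9, the cartilage factor, did not pass, with log2 fold changes of 0.27 and 0.37. Col1a1 and Col1a2 were lower in the same clones, and the part of the marker levels in these counts was not tested.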

How the data were processed

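Poly(A) RNA of 3 knockout and 3 het clones was sequenced with a stranded kit, per the labels' protocols. Trimmomatic 0.36, kallisto 0.42.5 and edgeR, with genome build GRCm38.p4, are named in the submitters' processing notes. The authors deposited estimated counts per transcript, FPKM values per transcript and a table of log2 fold changes, log2 mean CPM, p-values and FDR per transcript. The 10 genes and all gene lists were chosen with earlier results of these data known.

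Estimated counts of 96626 transcripts were summed to 32028 genes with GENCODE M21 (95213 matched, 260 assigned through the authors' table) and rounded to whole numbers. Transcripts with no gene held at most 0.0278% of the counts of a sample. edgeR 4.0.16 (R 4.3.3) was run with TMM scaling, filterByExpr with a count minimum of 10, glmQLFit and glmQLFTest on all 6 samples with the genotype as the only term, and Benjamini-Hochberg adjustment over 12745 genes with a threshold of 0.05. Transcripts were tested in the same way. CPM use TMM-scaled totals, and TPM were computed from the counts with the transcript lengths of the authors' table where it lists them and of GENCODE M21 otherwise. Fold ratios of counts carry exact 95% intervals, which cover counting error only, and 3 counts over a group of 3 clones equal 0.0577 CPM in knockout and 0.0595 CPM in het. The tests were checked on simulated data.

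Alternatives were other scalings (RLE, library totals), no filter and a filter of 1 CPM in 3 samples, DESeq2 1.42.0, limma-voom, limma 3.58.1 on log2(FPKM + 1) and log2(FPKM + 0.1), and leaving out each clone. Besides the 10 genes and Macf1, the text names from each list up to 4 passing genes by adjusted p (8 for other forkhead genes), the 2 most abundant not passing, any tested cluster neighbour, and, of the markers, the fibroblast genes that passed and some of the most abundant. Col5a1, Dcn, Thy1, Lum, Myod1, Myog, Kif7, Pax8, Zeb1 and Mta1 fall outside that rule and were chosen after their values were seen. Some genes are not reported here and were left out of the lists. Sequences are from RefSeq on GRCm38.p6, with 250 bases before each start.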

Additional observations from a re-analysis of the deposited data

How the results depend on the processing

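The log2 fold changes of the 8 tested factors were negative in every alternative that gave a value. The number of factors passing as lower was 6. It was also 6 with RLE scaling, library totals, DESeq2 and no filter (then with Osr2 and without Foxd1), 5 with limma-voom (without Foxd1) and with a filter of 1 CPM (where Foxl1 had no value), and 3 on both FPKM scales, where 5 had a value. Leaving out 1 clone gave 4 to 7. For Foxd1, Foxl1, Foxf1 and Osr2 the calls that depend on a setting are given beside the values. Over all genes the count of 3585 ranged from 1566 (without knockout clone 2) to 3825 (without het clone 1). With 1 clone left out, other forkhead genes passing ranged from 1 to 5 around 3, core Hedgehog genes from 4 to 6 around 5, and mesoderm factors from 3 to 10 around 6. In the same settings Foxp partners ranged from 1 to 6 around 5 and the genes listed as downstream from 6 to 12 around 10. Cluster neighbours ranged from 1 to 2 around 2, and transcripts of the factors from 1 to 5 around 5. With DESeq2 5 other forkhead genes passed, on both FPKM scales 3 core Hedgehog genes passed, and with no filter 1 cluster neighbour passed. The sign of Kif7 turned to 0.119 on log2(FPKM + 1) and 0.529 on log2(FPKM + 0.1). The signs of Gmds, Mthfsd and Rbbp4, which lie near 0 and did not pass, turned as well. Gmds was -0.001 with library totals and -0.004 with limma-voom, and ran from -0.096 to 0.191 with 1 clone left out, and Mthfsd ran from -0.03 to 0.135. Rbbp4 turned to -0.048 without knockout clone 1 and to -0.008 without het clone 3, in a range of -0.048 to 0.098 with 1 clone left out. Over the pairs of a named gene or transcript and an alternative in which the sign held, 76 were no longer past the threshold, 7 came past it and 687 stayed on their side. The cause of these changes was not tested, except that the FPKM table lists fewer genes and that leaving out a clone leaves fewer samples. No scaling moved the median of all genes by more than 0.1 on the log2 scale. No paired analysis was possible because the labels give each clone a name of its own and no replicate number that pairs the 2 genotypes. Low counts limit Foxf1, Foxl1, Foxc2, Osr1 and Osr2, which had at most 20 counts over the knockout clones.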
